A study of Mus musculus with 4 samples.

Results

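Hist1h1c encodes a linker histone of the H1 family, and its 3' UTR held a large group of the small RNAs listed for the spleen libraries of this study. Small RNAs were sequenced from the liver and the spleen of 1 wild type (WT) mouse and of 1 Miwi2-/- mouse, all labelled as adult C57BL/6, with 1 library per tissue and genotype. Miwi2-/- mice lack a functional Miwi2 (Piwil4) gene, which encodes a PIWI protein that binds piRNAs in germ cells. The labels give RNA cut from a gel at about 24 to 31 nt, while the published methods give a wider range, and the deposited lists name each different sequence of the authors' 3' UTR clusters once, without read counts. Cluster positions were given for the WT libraries only, and the published methods count Miwi2-/- sequences inside the cluster regions. The Miwi2-/- lists thus appear to be limited to clusters called in WT, which also limits the shares and ranks in these lists. A small RNA read many times and one read a single time therefore weigh the same, no value below has a replicate check, and tests compare libraries, not genotypes or tissues.

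The sequences described here were chosen by their placement: the best position in the mouse genome NCBIM37, with at most 1 mismatch, had to lie in the Hist1h1c 3' UTR annotated by GENCODE M1. Of 7390 distinct sequences in the 4 lists, 99 met this rule. They made up 75 of the 2634 sequences of WT spleen, 32 of the 378 of Miwi2-/- spleen, 10 of the 4273 of WT liver and 0 of the 560 of Miwi2-/- liver. The gene itself was selected on these counts, so they are given as a description and were not tested.

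Most histone mRNAs are not polyadenylated. They end a few bases after a conserved stem-loop, and the precursor is cut between the stem-loop and a downstream element that base-pairs with the 5' end of the U7 small nuclear RNA. The stem-loop stays on the mRNA and is bound by the stem-loop binding protein Slbp, while the piece downstream of the cut is removed by exonucleases. Some histone genes, the H1 genes among them, can also give longer, polyadenylated mRNAs.

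Hist1h1c (ENSMUSG00000036181.1) lies on the plus strand of chromosome 13, and its annotated 3' UTR covers chr13:23831354-23832235 of NCBIM37, of which the leading 3 bases are the stop codon and 879 follow it. All positions below count from the base after the stop codon. The stem-loop search asked for a stem of 6 pairs, with GG first and CC last, around a loop of 4 bases. The loop had to start with TT and end with C or A. This search found 1 stem-loop, at positions 25 to 40. The sequence from position 25 to 45 (chr13:23831381-23831401, plus strand) is shown because it sets the reference point for all other positions, with the arms of the stem in capitals.
Hist1h1c stem-loop: GGCTCTtttcAGAGCCaccac
The start of U7 RNA is shown next to it, from the U7 gene at chr6:124691243-124691304 (minus strand), the 1 gene with known status among 116 annotated U7 copies. Capitals mark U7 positions 8 to 16, which are complementary to 9 bases of the Hist1h1c 3' UTR, AAGAGCTGT, at positions 54 to 62.
U7 RNA, first 20 bases: aagtgttACAGCTCTTttag

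The complement of U7 began 14 nt after the stem-loop (chr13:23831410-23831418). For comparison, the leading 879-nt windows of 9692 other annotated 3' UTRs with at least that length after the stop codon were searched. On the sense strand, a stem-loop of this kind was found in 14 of these windows (0.144%), and AAGAGCTGT in 72 of them (0.743%). Shorter 3' UTRs, among them those of many histone genes, were left out of this count. The polyadenylation signal AATAAA stood at position 855, 25 nt before the annotated end, and was found anywhere in 37.1% of the same windows. In 3' UTRs longer than the window the 3' end was left out, so this share is no background for a signal near an end. The letters of these motifs do not show that a site is used. RefSeq's transcript, placed by its start, ended at position 44, that is 4 nt after the stem-loop, so this gene is annotated both with an end right after the stem-loop and with a long 3' UTR.

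The 4 sequences that were identical in WT liver, WT spleen and Miwi2-/- spleen are given here, since they show where most of these small RNAs lie. All began within 10 to 14 nt after the stem-loop, and capitals mark the 9 bases complementary to U7. T22A and G21A give the genome base, the position counted from 1 at the 5' end of the small RNA, and the base of the small RNA.
50 to 66, exact: acttAAGAGCTGTgaca
50 to 71, T22A: acttAAGAGCTGTgacatttga
52 to 70, exact: ttAAGAGCTGTgacatttg
54 to 75, G21A: AAGAGCTGTgacatttgtgtaa

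Hist1h1c sequences were a large part of the spleen lists and a small part of the WT liver list. They made up 2.85% of the WT spleen list (Wilson 95% interval 2.28 to 3.55) and 8.47% of the Miwi2-/- spleen list (6.06 to 11.7). In WT liver their share was 0.234% (0.127 to 0.43). None of the 560 sequences of Miwi2-/- liver was from Hist1h1c. A count of 0 allows a share of up to 0.536% by a limit of 3 sequences, or 0.681% by the Wilson interval, more than the share in WT liver, so a difference between the livers was not detectable at this depth. Intervals and limits cover counting error only.

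The lists hold a part of each library, so the counts were also set against all distinct sequences that aligned uniquely, 129176 in WT spleen, 25218 in Miwi2-/- spleen, 64572 in WT liver and 13288 in Miwi2-/- liver. Per 10000 such sequences, Hist1h1c gave 1.55 in WT liver, 5.81 in WT spleen and 12.7 in Miwi2-/- spleen. The order of the libraries was the same on this scale as in the lists. Both numbers depend on the depth of a library, and the part of depth in the higher value of Miwi2-/- spleen was not tested.

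By number of sequences, Hist1h1c stood at place 3 of the 348 genes with a sequence in WT spleen and at place 2 of 131 in Miwi2-/- spleen. In WT liver it was at place 61 of 495. Among 142 genes with at least 10 sequences over the lists, the profile over the 4 libraries was nearest to that of Ddi2, with 9 sequences in WT spleen, 4 in Miwi2-/- spleen and none in the livers. Next were Cpm and Hipk3, each with 11 and 4 sequences in the same libraries. The Euclidean distance of the list shares, scaled to a sum of 1, was 0.0306 for Ddi2 and 0.0447 for the other two, over 4 libraries.

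The labelled tissues were checked with 10 marker genes each. Of the liver markers, 3 had sequences in the lists, 125 in WT liver and 19 in Miwi2-/- liver, and none in either spleen list. Of the 10 spleen markers, Ighm was not annotated as protein-coding with a 3' UTR and could not be assessed. None of the others had a sequence in any list, so these markers give no check of the spleen labels.

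Along the 3' UTR, the Hist1h1c small RNAs of the spleen were not spread out but stacked in a short stretch just after the stem-loop. In WT spleen, 63 of 75 sequences (84.0%, Wilson 95% interval 74.1 to 90.6) had their 5' end 1 to 25 nt after it, a window chosen after the positions were seen. The same window held 27 of 32 sequences in Miwi2-/- spleen (84.4%, 68.2 to 93.1) and 4 of 10 in WT liver (interval 16.8 to 68.7%). Most of the annotated 3' UTR had no small RNA, with 31.3% of its bases covered in WT spleen, 16.8% in Miwi2-/- spleen and 18.8% in WT liver.

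**Figure D1:**
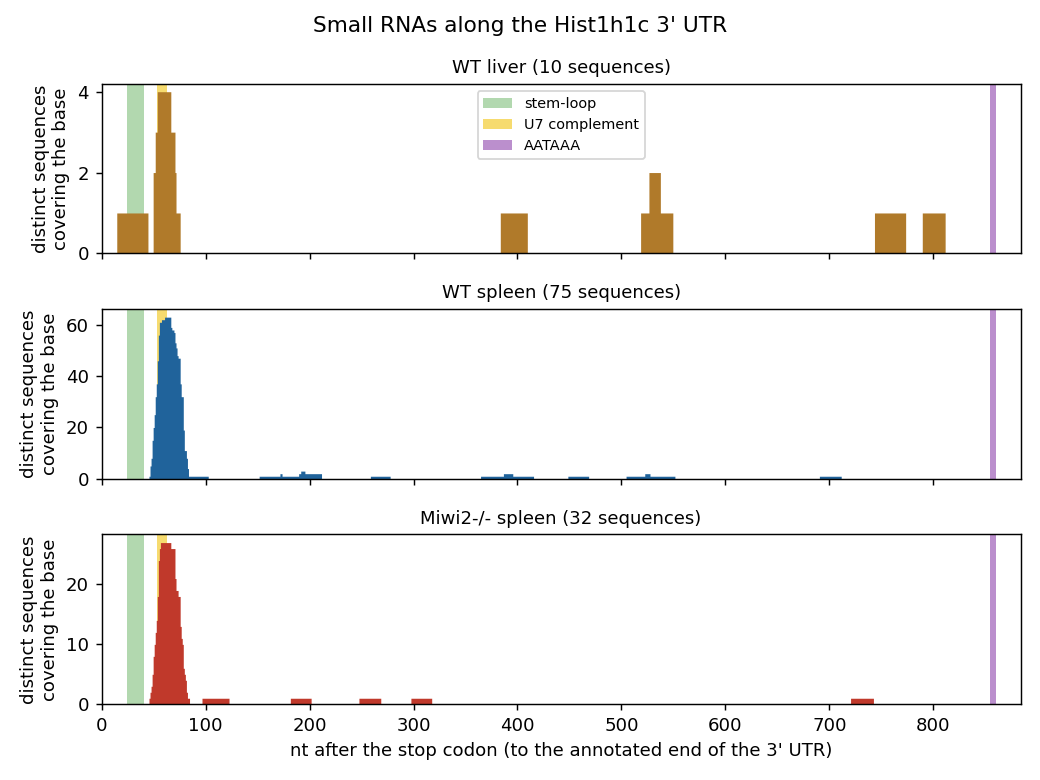
Number of distinct sequences that cover each base of the Hist1h1c 3' UTR (y axis, separate scale per library) against the distance from the stop codon in nt, for the 3 libraries with such sequences. Shading marks the stem-loop, the U7 complement and AATAAA. In the spleen libraries a single peak of 63 and 27 sequences lies right after the stem-loop, and the rest of the 3' UTR is covered by scattered sequences.

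All stacked sequences overlapped the bases complementary to U7. The whole 9 bases were contained in 46 of the 63 stacked sequences of WT spleen (73.0%), in 18 of 27 in Miwi2-/- spleen (66.7%) and in 4 of 4 in WT liver. The cover peaked at 63 sequences over positions 61 to 66 in WT spleen, at 27 over positions 57 to 66 in Miwi2-/- spleen and at 4 over positions 54 to 66 in WT liver. Every stacked sequence of a library thus covered the bases 61 to 66, which begin inside the U7 complement and run 4 nt past it.

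The 5' ends of the stack varied by single bases over a short stretch. In WT spleen they fell on 13 positions between 46 and 61, with a median of 52, and in Miwi2-/- spleen on 12 positions between 46 and 57, with a median of 53. In WT liver they lay between 50 and 54. Position 46 is 6 nt after the stem-loop and 2 nt after the end of RefSeq's transcript, so no stacked sequence reached into that transcript.

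The most frequent 5' ends were at the border of the U7 complement in both spleen libraries. In WT spleen, 10 sequences began at position 55, 9 at 54, 7 at 52 and 7 at 49. In Miwi2-/- spleen, 6 began at 55, 4 at 54 and 3 at 50. Of the 12 positions used in Miwi2-/- spleen, 11 were also used in WT spleen, and they held 26 of its 27 stacked sequences.

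The 3' ends of the stack were as varied as the 5' ends. They lay at 14 positions from 66 to 83 in WT spleen (median 78), at 13 positions from 66 to 84 in Miwi2-/- spleen (median 75) and between 66 and 75 in WT liver. The most frequent were 78, with 13 sequences, and 75, with 10, in WT spleen, and 70 and 75, with 5 each, in Miwi2-/- spleen. The 3' ends thus began 4 nt past the U7 complement and did not extend beyond position 84. Of the 13 positions in Miwi2-/- spleen, 10 were shared with WT spleen and held 24 of 27 sequences.

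**Figure D2:**
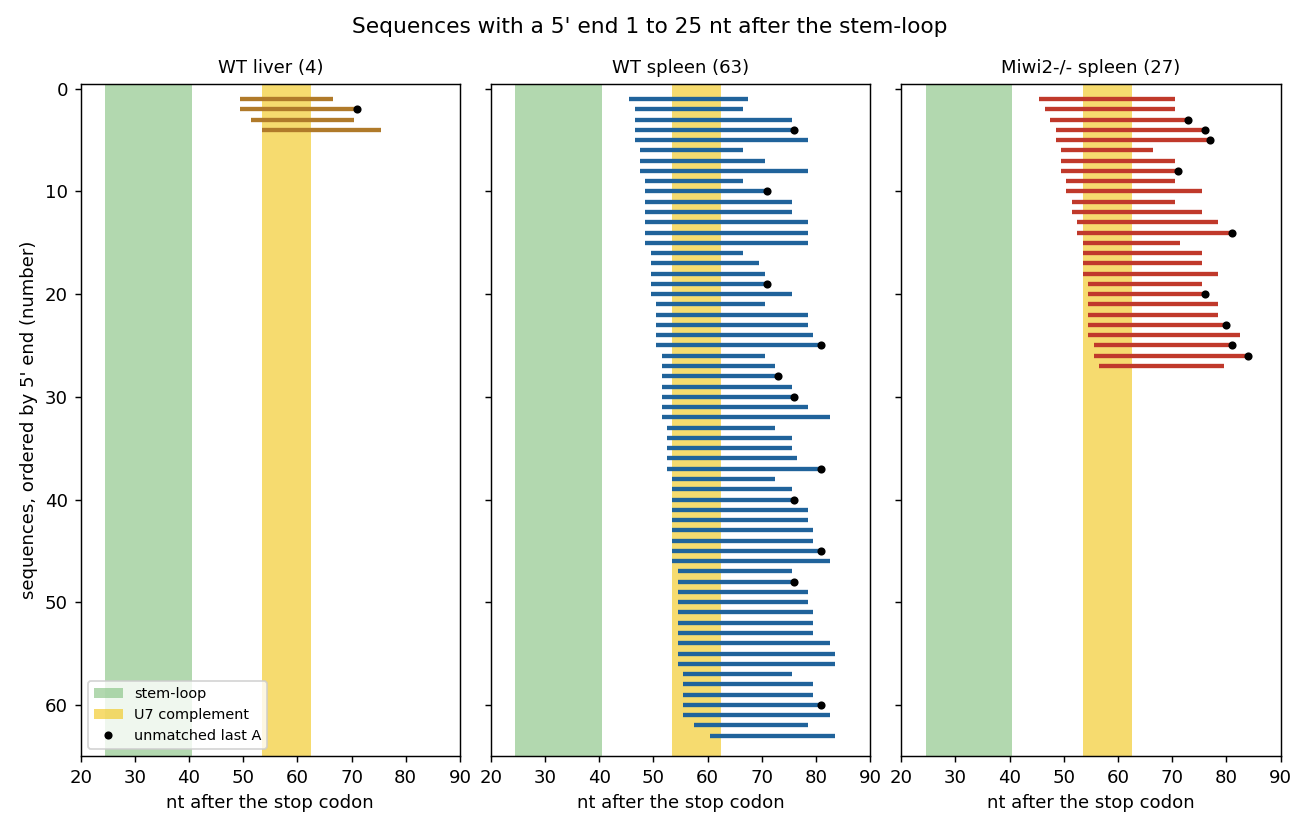
Each line is a distinct sequence with a 5' end 1 to 25 nt after the stem-loop, drawn from its 5' to its 3' end against the distance from the stop codon in nt and ordered by 5' end (y axis, running number). Green marks the stem-loop and yellow the U7 complement, and a dot marks a last base A that the genome does not have. The 4 sequences of WT liver, 63 of WT spleen and 27 of Miwi2-/- spleen all lie to the right of the stem-loop and cross the yellow band.

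**Figure D3:**
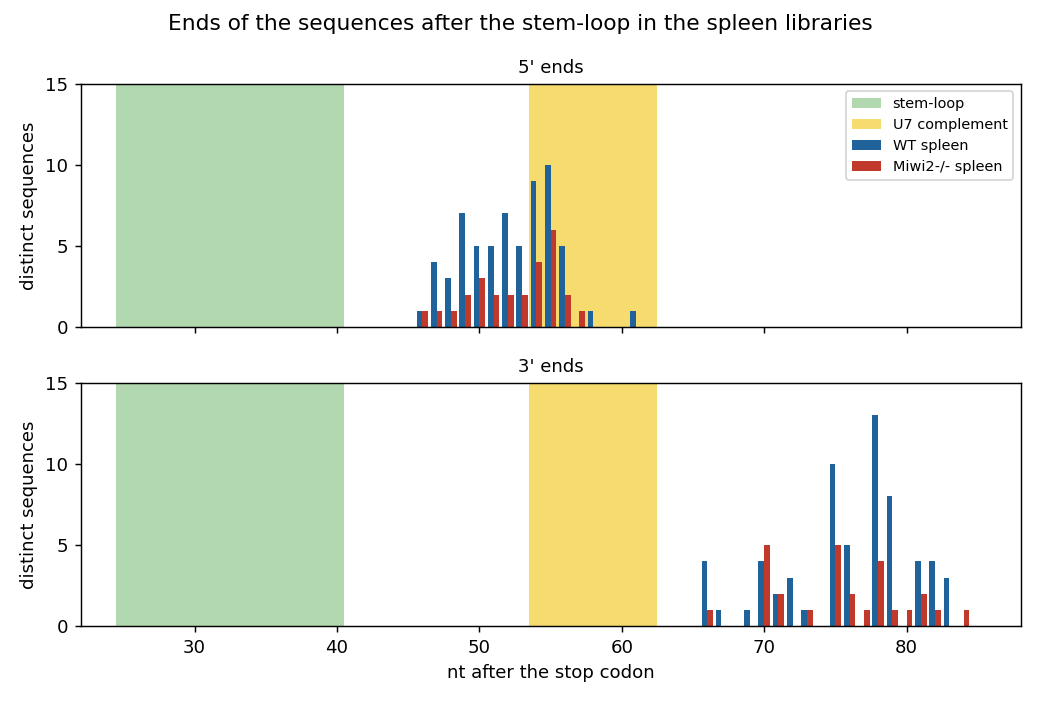
Number of distinct stacked sequences (y axis) with a 5' end (upper panel) or 3' end (lower panel) at each distance from the stop codon in nt, in WT spleen (blue) and Miwi2-/- spleen (red). In both libraries the 5' ends are highest at positions 54 and 55, and the 3' ends lie between 66 and 84.

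The sequences that began at the leading base of the U7 complement show how 3' ends varied from a common 5' end. There were 9 of them in WT spleen and 4 in Miwi2-/- spleen, and a choice of those of WT spleen from the shortest to the longest is given here. The sequence to position 78 with T24A was found in Miwi2-/- spleen as well.
54 to 72, exact: AAGAGCTGTgacatttgtg
54 to 76, T23A: AAGAGCTGTgacatttgtgtgaa
54 to 78, T24A: AAGAGCTGTgacatttgtgtgataa
54 to 78, exact: AAGAGCTGTgacatttgtgtgatta
54 to 82, G28A: AAGAGCTGTgacatttgtgtgattaataa

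The stack of the spleen libraries also began with the same base. The sequences farthest upstream, which start 2 nt after RefSeq's end, were these.
WT spleen, 46 to 67, exact: tcccacttAAGAGCTGTgacat
Miwi2-/- spleen, 46 to 70, exact: tcccacttAAGAGCTGTgacatttg

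Among the Hist1h1c sequences, those identical between libraries all lay in the stack. WT spleen and Miwi2-/- spleen had 14 sequences in common, 18.7% of those of WT spleen and 43.8% of those of Miwi2-/- spleen, and all 14 were stacked. Of the sequences from elsewhere, 92 were in common, 3.6% of the 2559 of WT spleen and 26.6% of the 346 of Miwi2-/- spleen. The 4 stacked sequences of WT liver were all present in both spleen lists, while none of its 6 others was. Of the 4263 WT liver sequences from elsewhere, 208 (4.88%) were in WT spleen and 69 (1.62%) in Miwi2-/- spleen. At such shares, none of 6 says little about recurrence outside the stack.

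Upstream of the stack there was a single sequence, from WT liver, and it was the only one of the 99 to touch the stem-loop. As placed, it ran from position 15 to 44, across the whole stem-loop, and ended at the base where RefSeq's transcript ends. It differed from the genome by C29T, next to its last base, so its match to that end rests on the last base alone. It is printed because it lies on the other side of that end from the stack. How it arose was not tested.
WT liver, 15 to 44, C29T: caatccaaaaggctcttttcagagccacta

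None of the 75 sequences of WT spleen and none of the 32 of Miwi2-/- spleen touched the stem-loop, against 1 of 10 in WT liver. The difference of WT spleen from WT liver did not pass (adjusted p = 0.303, Fisher's exact test). The exact test of 0 of 75 against 0 of 32 could only give a p of 1.0, so it shows nothing about the spleens. All were two-sided Fisher's exact tests, with each distinct sequence counted once. Benjamini-Hochberg adjustment was over 18 tests, that of the spleens included. These tests treat overlapping sequences as independent, so every p here overstates the evidence.

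Downstream of the stack, the small RNAs were few and scattered. WT spleen had 12, with 5' ends from position 82 to 691, and Miwi2-/- spleen had 5, from 97 to 721. In WT liver the 5 remaining sequences lay at 384 to 409, 519 to 537, 527 to 549, 744 to 773 and 790 to 811. Only the last of these began within 100 nt of the annotated 3' UTR end, so the region of AATAAA had next to no small RNAs in these lists. Just outside the 3' UTR, and not counted here, WT spleen had a sequence at -22 to 2, over the end of the coding region, and others at 978 to 998 and 990 to 1012, past the annotated end.

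The stack was compared with the densest stretch of the other genes with many sequences. In WT spleen, 10 genes had at least 20 sequences, Hist1h1c included. The densest 25-nt window of each held a median of 20.2% of its 5' ends, over all 10. Hist1h1c, with 84.0%, was exceeded by Vmp1 (98.6%), whose 3' UTR contains the miRNA gene Mir21, and followed by Mbnl1 (42.9%), a splicing regulator. Of the 4 genes with at least 10 sequences in Miwi2-/- spleen, Vmp1 had 97.2%, Hist1h1c 84.4%, Mbnl1 70.0% and Trim25 3 of 15 sequences, with a median of 77.2% over the 4. These windows were fitted to each gene, so the shares are a description. The annotated 3' UTR of Hist1h1c was the shortest of these, with 882 nt. That of Vmp1 had 1446 nt and those of the other genes 3415 to 13136 nt. A 25-nt window is thus a larger part of the Hist1h1c 3' UTR, and the shares were not corrected for length.

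Lengths were broad, and the WT spleen sequences had no peak at the length of miRNAs. They ranged from 17 to 32 nt with a median of 24 nt, and the most frequent length was 29 nt, with 8 sequences (10.7%). The other 3' UTR sequences of WT spleen had a median of 23 nt and their peak, 16.2%, at 23 nt. In Miwi2-/- spleen the Hist1h1c sequences had 17 to 29 nt, a median of 24 nt and peaks of 5 sequences each at 22 and 26 nt. Those of WT liver had 17 to 30 nt and a median of 22 nt.

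piRNAs are longer than miRNAs, so the share of 27 nt or longer was compared. It was 33.3% (Wilson 95% interval 23.7 to 44.6) for Hist1h1c in WT spleen, against 19.3% (17.7 to 21.1) for the other 3' UTR sequences of that list, a difference past the threshold of 0.05 (adjusted p = 0.0285, Fisher's exact test). The call was lost with exact matches alone (28.1% against 16.3%, adjusted p = 0.444), with 1 sequence for each 5' end (48.0% against 22.5%, adjusted p = 0.111) and with Mir21 left out of the other sequences (33.3% against 21.4%, adjusted p = 0.13). In Miwi2-/- spleen, the share was 15.6% (6.86 to 31.8) against 13.3% (9.86 to 17.6), which did not pass (exact test, adjusted p = 0.972). Between WT and Miwi2-/- spleen the Hist1h1c shares of 33.3% and 15.6% did not differ past the threshold (exact test, adjusted p = 0.296), nor did those of WT spleen and WT liver, where 2 of 10 were as long (adjusted p = 0.805).

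**Figure D4:**
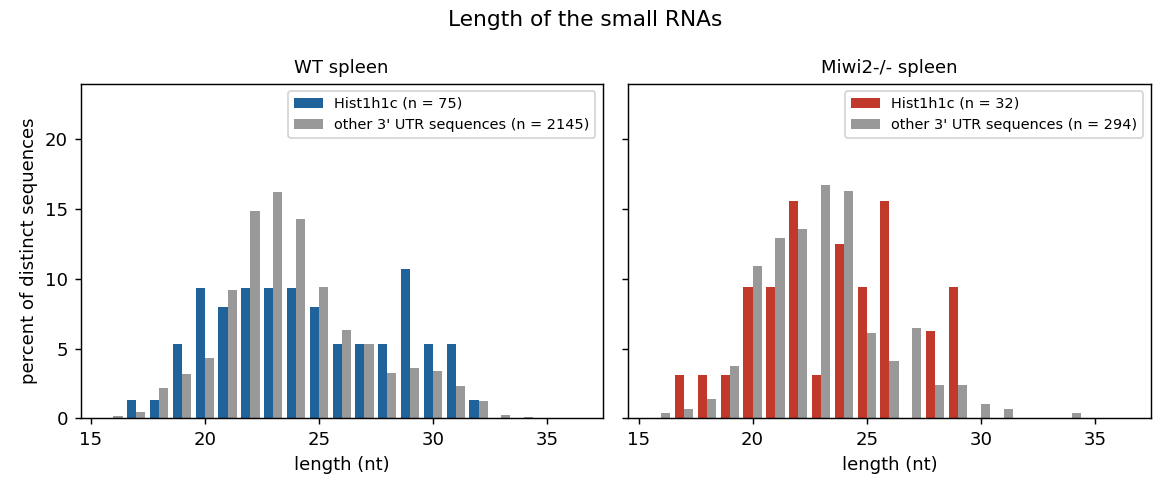
Share of distinct sequences (y axis, percent) at each length in nt (x axis) for Hist1h1c (coloured) and the other 3' UTR sequences of the same list (grey), in WT spleen and Miwi2-/- spleen. The other sequences peak at 23 nt in both libraries, while the Hist1h1c sequences are spread from 17 to 32 nt and from 17 to 29 nt.

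The 5' base of Hist1h1c small RNAs was less often U than that of the other sequences of the spleen lists. piRNAs and many miRNAs begin with U. In WT spleen 18 of 75 did (24.0%), against 38.8% of the other sequences (adjusted p = 0.0481, Fisher's exact test). In Miwi2-/- spleen it was 6 of 32 (18.8%) against 54.1% (exact test, adjusted p = 0.0025). Many of the other sequences come from Mir21, whose main product begins with U. With Mir21 left out, the shares of the other sequences were 33.3% and 43.3%, and both calls were lost (exact tests, adjusted p = 0.265 and 0.101). They were also lost with exact matches alone (adjusted p = 0.888 and 0.444) and with 1 sequence for each 5' end (adjusted p = 1.0 and 0.72).

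The most frequent 5' base was A in each library. It began 28 of 75 sequences in WT spleen (37.3%, against 39.2% of the others, adjusted p = 0.972) and 15 of 32 in Miwi2-/- spleen (46.9% against 26.2%, adjusted p = 0.077), neither past the threshold in the exact tests. Among the stacked sequences of Miwi2-/- spleen alone it was 51.9%, past the threshold of the exact test (adjusted p = 0.0256), in a comparison added after the positions were seen. With 1 sequence for each 5' end, the direction for all Hist1h1c sequences of that library turned, to 29.4% against 32.7% (exact test, adjusted p = 1.0). C began 21, G 8 and U 18 sequences in WT spleen, and C 6, G 5 and U 6 in Miwi2-/- spleen. In WT liver A began 4 sequences, U 3, C 2 and G 1. The 25 bases after the stem-loop, from which the stacked sequences start, hold 7 A, 9 C, 4 G and 5 T, and the whole 3' UTR after the stop codon has 20.5% A, 23.1% C, 25.9% G and 30.5% T.

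Neither base differed past the threshold of the exact test between WT and Miwi2-/- spleen (adjusted p = 0.788 for A and 0.932 for U) or between WT spleen and WT liver (adjusted p = 1.0 and 0.972). Of the 5 mismatched sequences of WT liver, 43 of WT spleen and 19 of Miwi2-/- spleen, 2 had an unmatched T at the 5' end. This holds if they are read in the direction of the gene, as for the 5' U counts above, which include both. The lists are in genome direction, so in an antisense RNA this base would be an unmatched A at the 3' end. Which of these holds was not tested. Both sequences lay outside the stack, in WT spleen, and were these.
152 to 173, C1T: tcacctagacttgtttgtgctg
523 to 551, A1T: tcagttaagttggactcgggactgagacg

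Most Hist1h1c small RNAs ended in A, 61 of 75 in WT spleen (81.3%), 25 of 32 in Miwi2-/- spleen (78.1%) and 7 of 10 in WT liver (70.0%). In 18, 10 and 2 of these the last A was a mismatch to the genome, as in T22A above. In WT spleen an unmatched last A was less frequent for Hist1h1c than for the other sequences, 24.0% against 41.6% (adjusted p = 0.0234, Fisher's exact test), but the direction depended on how it was counted. Where the unmatched A could stand anywhere in the run of A at the 3' end, as in G21A and T24A above, the shares were 46.7% and 43.1% (exact test, adjusted p = 0.908, added after seeing the data). The call was also lost with 1 sequence for each 5' end (36.0% against 46.5%, exact test, adjusted p = 0.72).

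In Miwi2-/- spleen the shares of an unmatched last A were 31.2% and 40.8%, which did not pass (exact test, adjusted p = 0.776). The Hist1h1c shares did not differ past the threshold between the spleen libraries (exact test, adjusted p = 0.805) or between WT spleen and WT liver (adjusted p = 1.0). Whether the A was added to the RNA or came from the adapter or its trimming was not tested. Without a last A, matched or not, the most frequent 3' ends of the stack were at positions 77, with 11 sequences, and 76, with 10, in WT spleen, and at 70, with 6, in Miwi2-/- spleen.

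Other histone genes were looked at to see whether their small RNAs lie in the same place. Of 79 histone genes listed, 78 were annotated as protein-coding with a 3' UTR. By the stem and loop rule used for Hist1h1c, 59 of these had a stem-loop after the stop codon. Here the search was not confined to the annotated 3' UTR. In Hist1h1b, for example, the stem-loop lay at 31 to 46 nt, past an annotated 3' UTR of 3 nt. Outside Hist1h1c, 4 genes had sequences in their 3' UTR in WT spleen (16 sequences) and the same number of genes in Miwi2-/- spleen (13 sequences). The livers had Hist1h2bc alone, a histone H2B gene, with 6 sequences in WT liver and 1 in Miwi2-/- liver, none of them near its stem-loop.

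The 4 spleen genes were Hist1h3a and Hist1h3g, which encode histone H3, and Hist1h4a and Hist1h4h, which encode histone H4. The stem-loop search found Hist1h3a and Hist1h4h, and the other two after any loop of 4 bases was allowed, a change made after seeing the data. In WT spleen, 13 sequences of these 4 genes had a 5' end 1 to 25 nt after the stem-loop, and in Miwi2-/- spleen 11 sequences of 3 of them did. No such sequence was found in either liver list.

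Within this window, the positions overlapped those of Hist1h1c, where the 5' ends of the spleen stacks lay 6 to 21 nt after the stem-loop. In Hist1h3g they lay 11 to 12 nt after it in WT spleen (4 of 5 sequences, the other at -25 nt) and 9 to 19 nt in Miwi2-/- spleen (7 sequences). Those of Hist1h4a were at 12 to 19 nt (3 sequences) and 14 to 19 nt (2 sequences). Hist1h4h was more spread out, with 5' ends at -59, -49, 14, 15, 19 and 68 nt in WT spleen and at -37, 12 and 15 nt in Miwi2-/- spleen. Hist1h3a had 5' ends at 10, 19 and 19 nt in WT spleen, while its 1 sequence in Miwi2-/- spleen began -24 nt from the last base of the stem-loop and crossed it.

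An example from each of these genes is printed in the direction of the gene, with the longest run complementary to the leading 20 bases of U7 in capitals, for comparison with Hist1h1c. The runs were 9 bases in Hist1h4h, 7 in Hist1h3a and Hist1h4a and 6 in Hist1h3g. These matches are a description.
Hist1h4h, both spleen libraries, chr13:23623357-23623375, plus strand: atTAAAAGAGCgaacatgt
Hist1h4a, WT spleen, chr13:23852631-23852657, minus strand: ctgaaaaagcGCTGTAAtactgaacca
Hist1h3a, WT spleen, chr13:23853715-23853740, minus strand: aatgGCTGTAAtttactccatcctta
Hist1h3g, both spleen libraries, chr13:23627784-23627809, plus strand: caaaAAAAGAactgtagcgcttttta

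**Figure D5:**
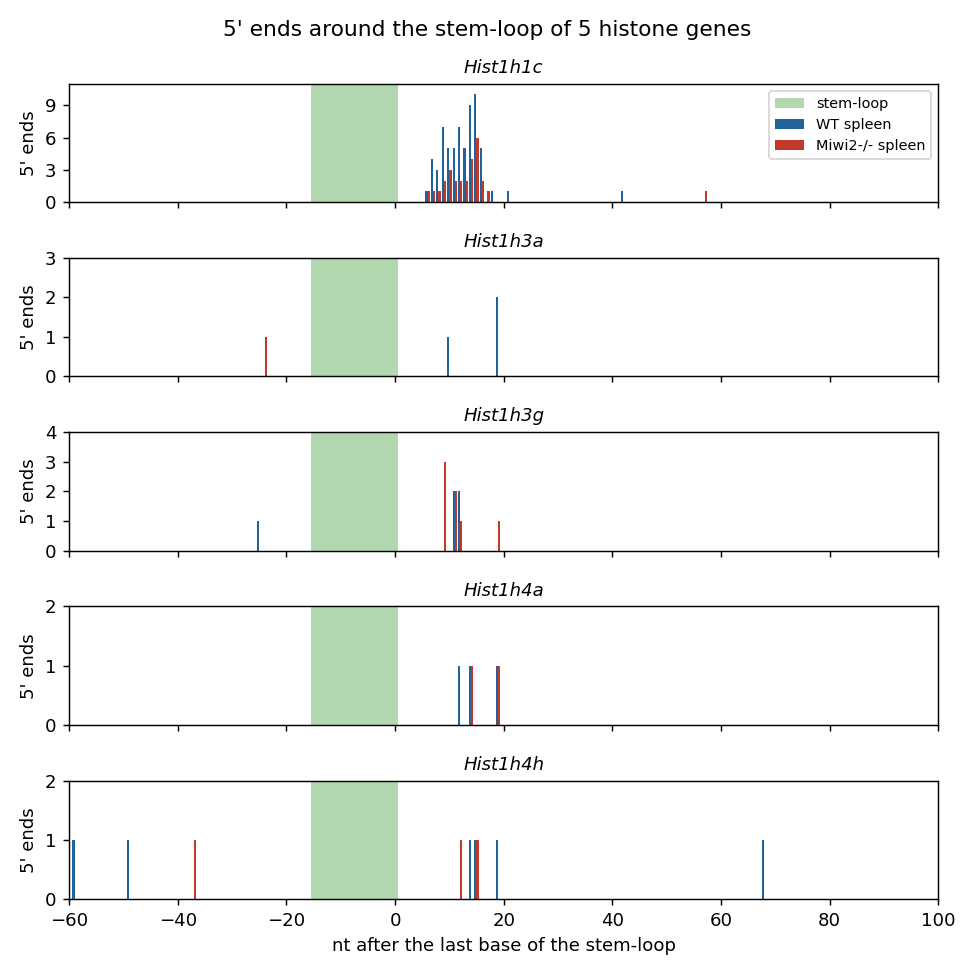
Number of distinct sequences (y axis) whose 5' end lies at each distance in nt from the last base of the stem-loop, which is shaded. Drawn are Hist1h1c and the 4 other histone genes with spleen sequences in their 3' UTR, in WT spleen (blue) and Miwi2-/- spleen (red). Hist1h2af, with a WT spleen sequence at -32 nt, is not drawn. Each gene has 5' ends 6 to 21 nt after the stem-loop in WT spleen, Hist1h1c the most. The x axis runs from 60 nt before to 100 nt after the last base of the stem-loop, and Hist1h1c sequences farther downstream are not drawn. Outside that range of 6 to 21 nt but on the axis in WT spleen are Hist1h4h at -59, -49 and 68 nt, Hist1h3g at -25 nt and Hist1h1c at 42 nt. In Miwi2-/- spleen these are Hist1h4h at -37 nt, Hist1h3a at -24 nt and Hist1h1c at 57 nt.

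Of the 11 genes listed for proteins of histone mRNA 3' end processing, Slbp and the U7 proteins Lsm10 and Lsm11 among them, Cpsf2 alone had sequences, 3 in WT spleen. Cpsf2 encodes a subunit of the cleavage and polyadenylation specificity factor. A gene with no sequence here had none in the deposited clusters, which does not show that its RNA gave no small RNAs.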

How the data were processed

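Small RNAs of liver and spleen from 1 WT and 1 Miwi2-/- mouse were measured, 1 library per group. Per the labels and the methods, the authors trimmed the 3' adapter (cutadapt), collapsed identical reads, removed known ncRNAs, kept unique Bowtie alignments to mm9 and then the sequences in 3' UTR clusters. The deposited values are distinct sequences with no counts, and cluster positions for the WT libraries. Collapsing hides abundance, and the lists are in genome direction, so antisense RNAs could not be told apart.

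All 7390 sequences were placed on NCBIM37 with at most 1 mismatch by a program in Python 3.11.15 with numba 0.67.0. For 100.0% of simulated sequences, the position of origin was among the hits. Whether it was the single best hit was not checked in that simulation. A sequence belonged to a 3' UTR that held at least 50% of it. Comparisons used two-sided Fisher's exact tests (scipy 1.17.1), adjusted over 18 tests. The other sequences were those in 3' UTRs of a single strand, 2145 in WT spleen and 294 in Miwi2-/- spleen. Depths are distinct uniquely aligned sequences from the study's processing tables. Genes named were Hist1h1c, histone and 3' end processing genes with a sequence, and the 3 genes with the most similar profiles; the genes in the window comparison were named after their values were seen. Gene, members, lists and tests were chosen with earlier results of these data known.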

Additional observations from a re-analysis of the deposited data

How the results depend on the processing

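Of 98 alternative values, 76 counted as unchanged, which for a tested difference means not reversed and on the same side of the threshold. The 98 include shares of each list, which have no test, and the stem-loop comparison of 0 with 0, which could not change. Each of the 4 calls was lost under at least 1 alternative. The following are differences in percentage points, Hist1h1c minus the other sequences unless said otherwise. With exact matches, those of WT spleen were 11.8 for 27 nt or longer and -8.41 for 5' U, and those of Miwi2-/- spleen -32.1 for 5' U and, reversed, -5.18 for 27 nt or longer. WT spleen minus WT liver reversed to 11.2 for 5' A. With 1 sequence for each 5' end, WT spleen had 25.5 for 27 nt or longer, -1.0 for 5' U and -10.5 for the unmatched last A. Miwi2-/- spleen had -18.9 for 5' U and a reversed -3.31 for 5' A, and WT minus Miwi2-/- spleen a reversed 0.706 for the unmatched last A. At 26 nt or longer, WT spleen had 13.0 (adjusted p = 0.0706, Fisher's exact test). Without Mir21, it had 11.9 for 27 nt or longer and -9.28 for 5' U, and Miwi2-/- spleen -1.34 and -24.6. With the unmatched A anywhere in the terminal run, both spleens reversed, to 3.59 and 8.5. The stack alone gave 25.7 for 5' A in Miwi2-/- spleen. As shares of uniquely aligned sequences, Hist1h1c made up 0.0155% in WT liver, 0.0581% in WT spleen and 0.127% in Miwi2-/- spleen. The causes of these changes were not tested. Exact matches and 1 sequence per 5' end also leave fewer sequences.

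No paired analysis was possible because each group has 1 library. With 10 sequences in WT liver and a share of up to 0.536% allowed in Miwi2-/- liver, the depth limits any statement on liver.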
